A study of Mus musculus with 13 samples.

Results

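The genes described here are the 65 translation initiation and elongation factor genes measured in the ventral tegmental area (VTA) of mice, punched out as bulk tissue, out of 26264 genes in the deposited table. They were chosen by name: symbols that start with Eif and a digit or with Eef1 or Eef2, and Tpt1, which encodes a translationally controlled protein that binds elongation factor complexes. Of 73 matching symbols, the rule left out 3 (Eif2s3x, Eif2s3y and Eif1ax), and 5 did not reach 10 normalized counts in 2 libraries. Just outside that minimum lay Eef1akmt3, with at most 7.82 normalized counts, and the other 4 (Eef1akmt4-ece2, Eif2c5, Eif3j2 and Eif4e1b) were at 0.0 in every library. Just inside it lay Eef1akmt4, at 11.4 to 38.8, and Eif4ebp1, at 10.7 to 61.3. All 65 genes reached 10 in all 13 libraries, so none was kept through 1 group alone.

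The study asked how extra Setd7, a lysine methyltransferase that can methylate histone H3, given early in life alters the response of the VTA to adult stress. Mice of the strain written C57BlJ/6 received a virus into the VTA at postnatal day 14, carrying either Setd7 or green fluorescent protein (GFP), and some met social defeat as adults. All animals had the injection, so no library shows the VTA without virus, and neither the promoter of the virus nor the age at collection is given in the sources used here. Without defeat there were 3 GFP libraries (1 from a female) and 4 Setd7 libraries (2 from females), called GFP control and Setd7 control. After defeat there were 4 GFP libraries (2 from females) and 2 Setd7 libraries (1 from a female), called GFP defeat and Setd7 defeat. The labels do not say that each library is a separate animal, so p-values measure the spread between these libraries.

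Translation starts when initiation factors bring the initiator tRNA, the small ribosomal subunit and the capped mRNA together. The eIF2 complex carries the tRNA, and 4 kinases (genes Eif2ak1 to Eif2ak4) phosphorylate its alpha subunit under stress, which slows initiation while favouring a few stress mRNAs such as Atf4. The eIF4 proteins bind the cap and unwind the mRNA, eIF3 bridges them to the ribosome, and the eIF4E-binding proteins hold the cap-binding protein back until mTOR phosphorylates them. Elongation uses eEF1A to deliver each aminoacyl-tRNA and eEF2 to move the ribosome, and eEF2 kinase, which neurons use to couple translation to activity, inhibits eEF2. Many elongation factor and ribosomal protein mRNAs begin with a tract of pyrimidines (TOP mRNAs) through which mTOR and LARP1 set their translation and stability together. The data here are mRNA levels and hold no measure of translation or phosphorylation.

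Libraries held 26548713 to 50842070 reads assigned to genes. Setd7 itself read 10888 to 14538 normalized counts in the 7 GFP libraries and 28587 to 158681 in the 6 Setd7 libraries, the lowest being Setd7 control replicate 4. The dopamine neuron gene Th, which marks the VTA, was present in every library but low in 3 of them, at 3392 and 2508 in GFP control replicates 2 and 3 and 2539 in GFP defeat replicate 1, against 9760 to 19111 in the other 10. Summed over 16 dopamine neuron markers, none of which was at 0, the range was 35955 to 98567 in GFP control, 40006 to 158095 after defeat with GFP, 89026 to 167583 in Setd7 control and 99426 to 118697 after defeat with Setd7. The 8 microglia markers summed to 22262 in the highest Setd7 control library, replicate 4, and the 9 meningeal fibroblast markers to 16362 in the highest Setd7 defeat library, replicate 1, each above every library of the other groups. The 11 thalamus markers summed to at most 104009.5 in GFP control and 63625.5 in the other groups. The 6 markers of excitatory neurons of other regions reached 7449 in GFP control and at most 3024 elsewhere. In Setd7 control against GFP control, 0 of 11 and 0 of 6 were above 0 (51.4% of all genes). Their median log2 fold changes were −0.60 and −0.73 (−0.14 and −0.48 without the 3 libraries low in Th). Their part in member differences was not tested. Because 2 of the 3 GFP control libraries are low in Th, the values of members and lists without the 3 libraries low in Th are given wherever they differ by over 1.5 times or in sign. In that setting GFP control is replicate 1 alone, whose variance limma borrows from the other groups. In bulk tissue, fewer cells of a type and less RNA per cell cannot be told apart.

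Pyrimidine tracts near the start are shown first because several members described below encode known TOP mRNAs. Promoter windows from RefSeq (GRCm38.p6, a different build from that of the counts, used only for these letters) were found for 52 of the 65 genes. The letters searched were a run of at least 7 bases, each C or T and the first a C, on the transcribed strand only, between 25 bases before the annotated start and 50 after it. Such a run was present in 22 of 52 genes (42.3%), against 9444 of 27025 genes in all (34.9%) and 44 of 56 cytosolic ribosomal protein genes (78.6%). Of 10 TOP mRNAs listed among the 65 genes, 6 had a window and 4 of these held a run (66.7%). The lines below give 30 bases around the longest run for 6 members, 5 of them listed as TOP mRNAs and Eif3l shown for its difference by virus, 5′ to 3′ on the gene's strand, with the run in capitals.
Eef1a1, chr9:78481710-78481739, minus strand: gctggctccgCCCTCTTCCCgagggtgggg
Eef2, chr10:81176636-81176665, plus strand: cgtcagcggtCTCTTCCgccgcagccgccg
Eif3f, chr7:108934401-108934430, plus strand: ctgttctaggCTCTCTCTCTTTCTCggcaa
Eif3l, chr15:79075217-79075246, plus strand: tcttcttccgCTCTCTCCCacgggcttctg
Eif4b, chr15:102073773-102073802, plus strand: cgccgcgccaCCCCCTCgcgctgctttacg
Tpt1, chr14:75845276-75845305, plus strand: cggtgacgtagccgagcgtgCCCTCTatat
The longest run was 15 bases in Eif3f and 10 in Eef1a1, starting 4 and 5 bases before the annotated start. In Tpt1, a known TOP mRNA, the longest was 6 bases and began at base 41 after the annotated start, under the minimum. A match describes these letters and does not show a site in use.

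The most abundant members per length were the elongation factors. Levels per kilobase of merged exons were known for 63 of the 65 and adjust only for annotated length. All annotated exons enter that length, used in the VTA or not, so levels of different genes compare only roughly. Eef1a2 stood at 20841 normalized counts per kilobase, Eef1a1 at 12415 and Eef2 at 11358 (means of 13 libraries). Eef1a2 and Eef1a1 encode the 2 forms of eEF1A, the first being the form of mature neurons and muscle. Next came Eif1b (2512), Eif4g2 (2462), Eif4a2 (2461) and Eif5a (2291), whose ranges over libraries overlapped: they encode a start codon factor, a scaffold for initiation without eIF4E, the form of the eIF4A helicase that prevails in brain and a factor that keeps ribosomes moving. The ranges of Eef1a1 (10392 to 14141) and Eef2 (10380 to 12489) overlapped too, while the lowest Eef1a2 library (18263) lay above both. At the other end were Eif4ebp1 at 12, Eef1akmt4 at 15.3 and Eef2kmt at 36.5. In normalized counts per gene, 39 members averaged 1000 or more, the 6 highest averaged 11670 or more and 4 were under 100. Together the members held 0.719 to 0.760% of all normalized counts per library, with 0.719 to 0.760% in GFP control, 0.731 to 0.749% after defeat with GFP, 0.734 to 0.755% in Setd7 control and 0.745 to 0.751% after defeat with Setd7.

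**Figure D1:**
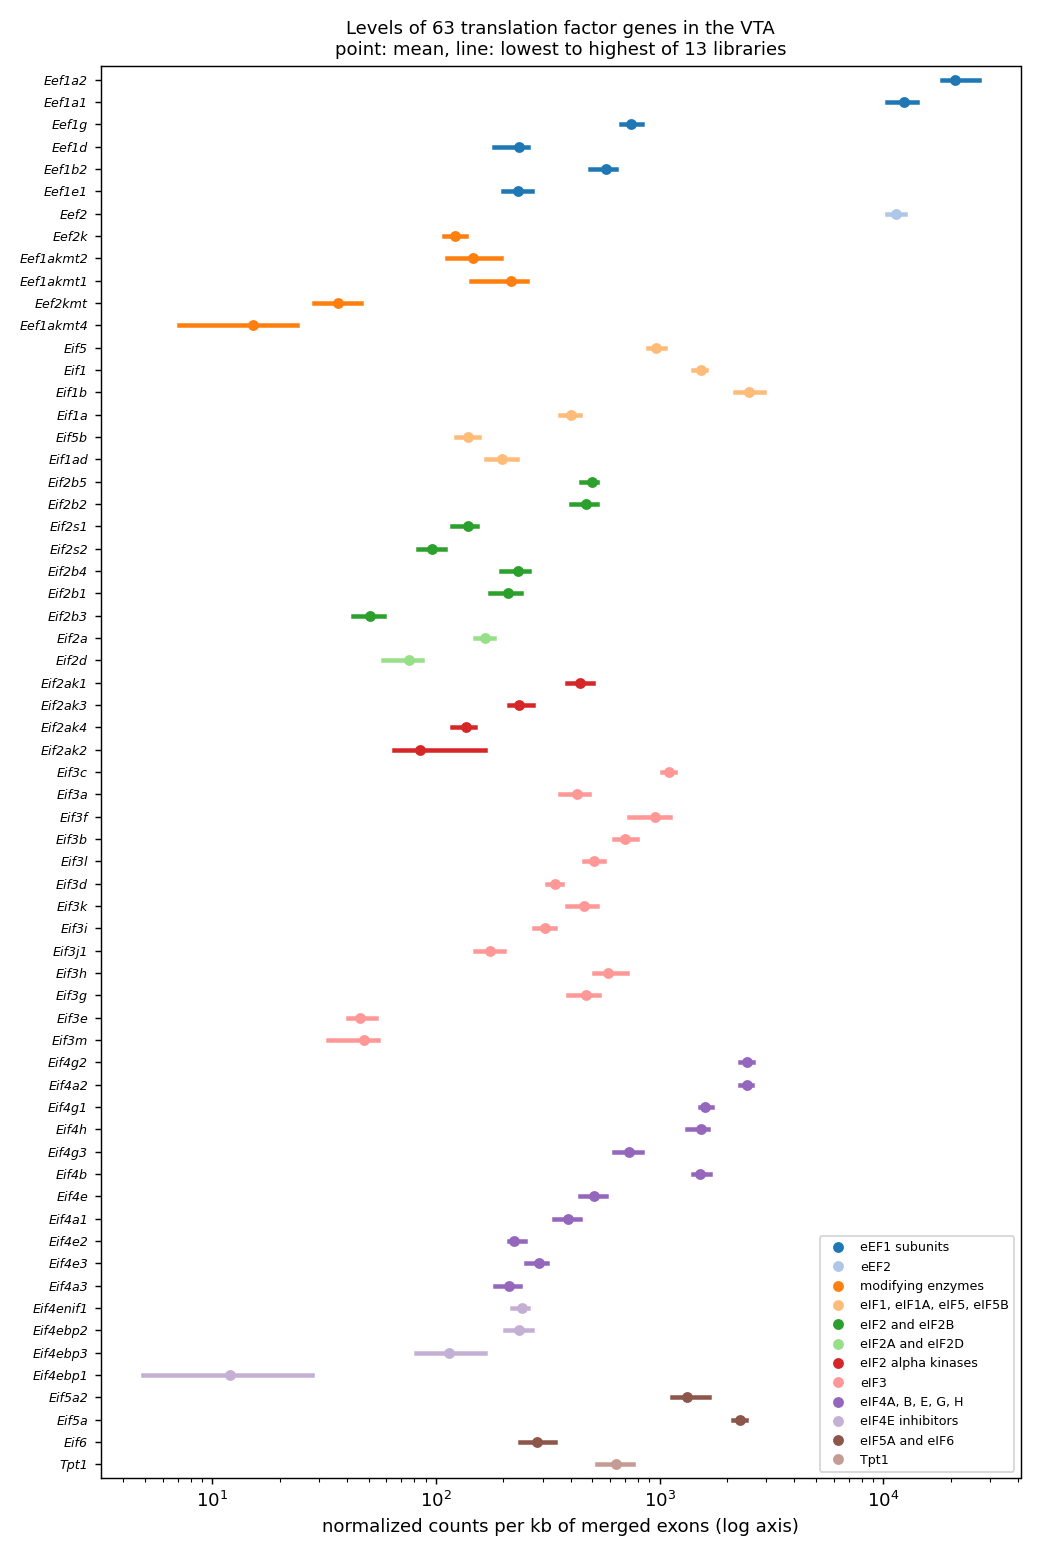
Mean level of 63 genes in normalized counts per kilobase of merged exons on a log axis, coloured by role, with lines from the lowest to the highest of 13 libraries. Eef1a2, Eef1a1 and Eef2 lie at the top (20841, 12415 and 11358) and Eif4ebp1 and Eef1akmt4 at the bottom (12 and 15.3), with the longest lines at the low end.

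Among paralogues the forms known from brain had the higher levels in 2 pairs. Eef1a2 stood at 1.29 to 2.57 times Eef1a1 per kilobase (median 1.66), with the highest ratio in GFP control replicate 3, where Th was lowest. Eif4a2 stood at 5.56 to 7.06 times Eif4a1 (median 6.45). The 2 Setd7 defeat libraries had the lowest ratios, 5.57 and 5.56, while GFP control lay at 6.45 to 6.73, GFP defeat at 5.73 to 6.71 and Setd7 control at 6.37 to 7.06. Eif1b, whose product resembles the start codon factor eIF1, stood at 1.42 to 1.97 times Eif1, and Eif5a2 at 0.483 to 0.713 times Eif5a. Outside these 4 pairs, Eif4ebp2 stood at 7.93 to 44.8 times Eif4ebp1, a gene with few counts, and Eif4g3 at 0.403 to 0.528 times Eif4g1. Reads of Eif1, Eef1a1, Eef1g, Eif4a1 and Tpt1 may be split with processed copies: 12, 8, 4, 3 and 3 annotated pseudogenes match their transcripts over 300 or more bases at 95% identity or more, and 17 of 63 members compared had at least 1. Their values are therefore uncertain, as are those of Eif4a3 and its copy Eif4a3l1. The Eif4ebp1 transcript matched 66 other annotated genes at the same limits, 2 of them pseudogenes, so its level and spread are uncertain too.

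**Figure D2:**
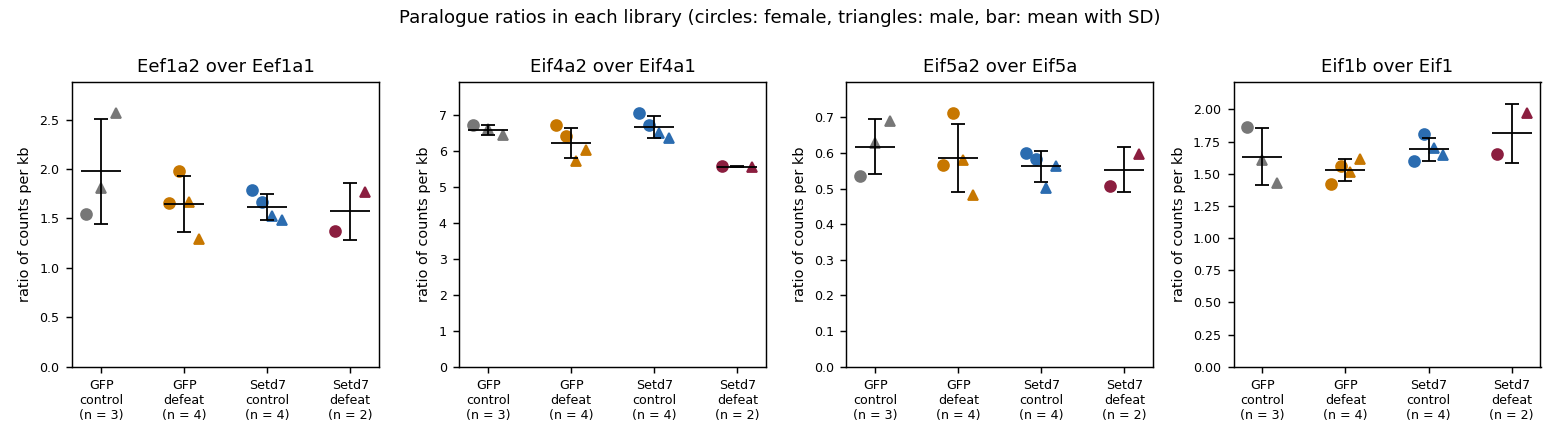
Ratio of counts per kilobase for 4 paralogue pairs, 1 point per library by group, with mean and SD. The Setd7 defeat libraries have the lowest Eif4a2 over Eif4a1 ratios, 5.57 and 5.56, and the highest Eef1a2 over Eef1a1 ratio, 2.57, is a GFP control library.

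Most members varied little. The SD of log2 counts over the 13 libraries had a median of 0.114 among the members and 0.192 among all 17755 genes tested, and the highest library was under 1.5 times the lowest in 54 of 65. The steadiest were Eif4g2 (SD 0.058), Eif4a2 (0.059), Eif4g1 (0.059), which encodes the main scaffold of the cap complex, and Eif3c (0.060), a core eIF3 subunit. The least steady were Eif4ebp1 (0.64), Eef1akmt4 (0.61), which encodes a lysine methyltransferase of eEF1A, Eif2ak2 (0.35) and Eif4ebp3 (0.34), and the first 2 and Eif4ebp3 are among the 4 members under 100 counts.

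No member passed adjusted p of 0.05 in any comparison by limma (0 of 65), and the background was as low. The share of all genes called was 0.0% for Setd7 without defeat, defeat with GFP, Setd7 after defeat, defeat with Setd7, their interaction, defeat averaged over virus, and Setd7 control against GFP defeat. It was 0.00563% (1 gene, Setd7) for the Setd7 effect averaged over defeat and 0.062% (11 genes) between the sexes. Counts at an unadjusted p under 0.05 follow, each beside the same share over all genes. In Setd7 without defeat it was 6 of 65 higher (background 4.31% of genes higher): Tpt1, Eef1g, Eef1a1, Eef1d, Eif3h and Eif3l, with 0 lower. In defeat with GFP it was 5 higher (background 4.87%): Eif6, Eef1d, Eif4h, Eef2 and Eif3f, with 0 lower. In Setd7 after defeat it was 5 higher (background 2.59%), Tpt1, Eif1b, Eif2ak3, Eif3l and Eif3j1, and 1 lower (background 2.26%), Eef1akmt1. In defeat with Setd7 it was 2 in either direction (background 2.59%), Eif4a1 and Tpt1. In the interaction it was 4 (background 4.96%), Eef2kmt and Eif2d above 0 and Eif3f and Eef1akmt1 below. The median log2 fold change of the members was 0.044 in Setd7 without defeat (all genes 0.0057), 0.045 in defeat with GFP (−0.0020), 0.015 in Setd7 after defeat (0.0032) and 0.0061 in defeat with Setd7 (−0.0068). Without the 3 libraries low in Th the median of the members in Setd7 after defeat was 0.0020. The first 2 comparisons share their 3 GFP control libraries, so values that look alike in them are not independent.

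**Figure D3:**
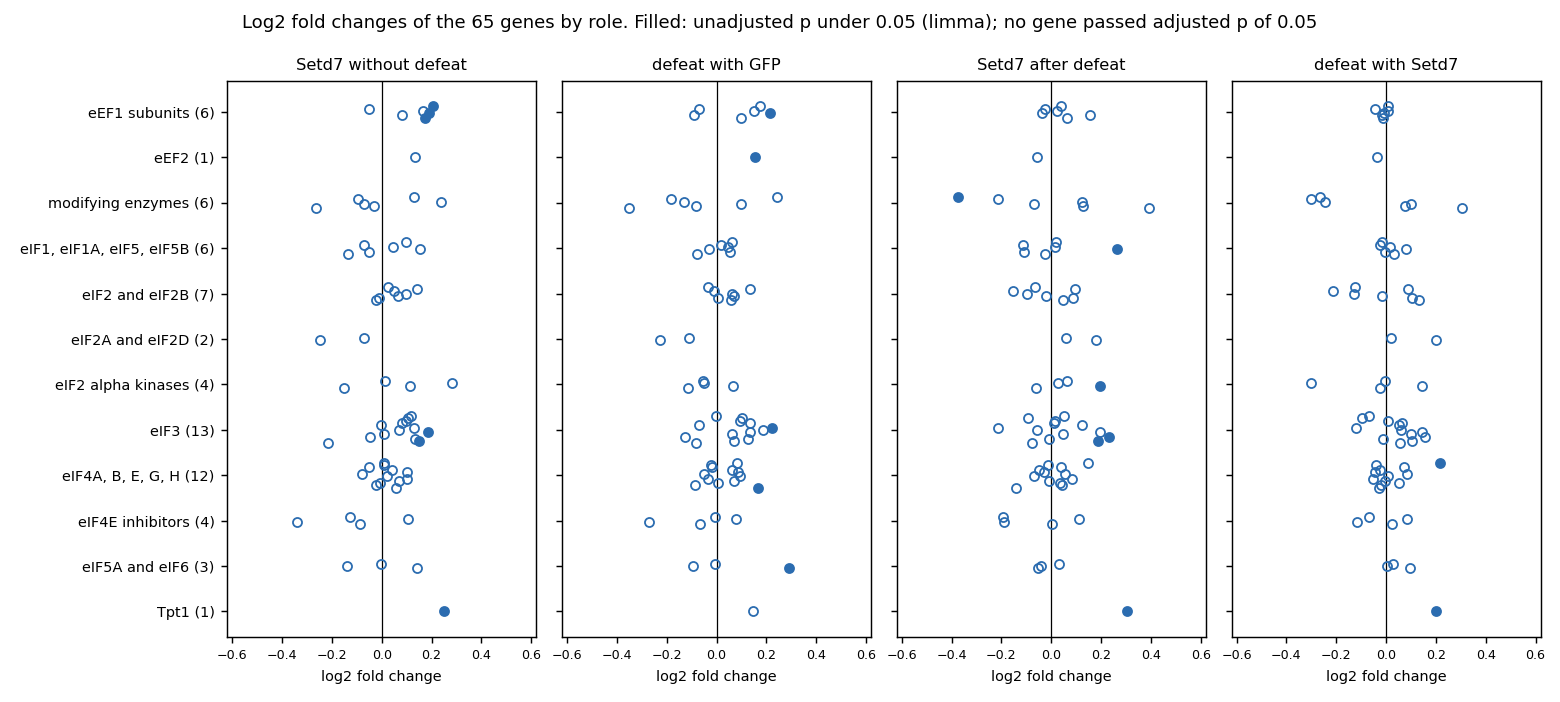
Log2 fold change (x axis) of each of the 65 genes, in rows by role with the number of genes in brackets, for 4 comparisons. Filled points have an unadjusted p under 0.05, and none passed adjusted p of 0.05; Tpt1 lies right of 0 in all 4, at 0.25, 0.15, 0.30 and 0.20.

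Tpt1, which encodes the translationally controlled tumour protein and is itself a TOP mRNA, differed most between the viruses. It read 1247, 1344 and 1407 in GFP control, 1301, 1509, 1576 and 1487 after defeat with GFP, 1663, 1528, 1513 and 1591 in Setd7 control, and 1806 and 1809 after defeat with Setd7. Compared within controls and within defeat, the lowest Setd7 value exceeded the highest GFP value, and over all 13 the viruses overlapped, since GFP defeat replicate 3 lay above 2 Setd7 control libraries. Means were 1333 ± 80.7 (SD, n = 3), 1468 ± 118 (n = 4), 1574 ± 68.2 (n = 4) and 1808 ± 2.04 (n = 2). The log2 difference with Setd7 was 0.25 ± 0.08 (standard error) without defeat (adjusted p = 0.539 by limma) and 0.30 ± 0.09 after it (0.990 by limma). Averaged over defeat it was 0.28 ± 0.06, with an unadjusted p of 0.000336, which ranked 3 among 17755 genes, and adjusted p = 0.686 by limma and 0.645 by edgeR. DESeq2 gave 0.0340, so Tpt1 is the 1 member called by any of the 3 tools in any of the 9 comparisons, where DESeq2 called 0.0394% of all genes. Without the 3 libraries low in Th the averaged difference was 0.29, and with a dopamine neuron covariate 0.26. Between defeat and control Tpt1 was higher by 0.15 ± 0.08 with GFP (0.30 without the libraries low in Th) and 0.20 ± 0.09 with Setd7. The interaction was 0.05 ± 0.11 (−0.10 without those libraries), so no difference between the Setd7 effects was detected. Within Setd7 control, replicates 1 to 4 held 158681, 140236, 81302 and 28587 counts of Setd7. Their Tpt1 values were 1663, 1528, 1513 and 1591. Replicates 1 to 3 had the same order for both genes, and replicate 4, the library high in microglia markers, broke it. A link between Tpt1 and the amount of Setd7 was not tested. Without Setd7 defeat replicate 1, the library high in meningeal genes, the difference after defeat was 0.27.

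Of 6 genes grouped by symbol as eEF1 subunits, 5 were above GFP control in Setd7 control. Of these, 3 had an unadjusted p under 0.05, and the median log2 fold change of the 6 was 0.17. Over all genes 51.4% were above 0 and 4.31% were higher at that threshold. Eef1a1 read 29477, 28207 and 25907 in GFP control against 30411, 31957, 32404 and 33576 in Setd7 control, and the 2 groups did not overlap. Its difference was 0.21 ± 0.09 (adjusted p = 0.605 by limma). Eef1g, a structural subunit of the exchange factor that reloads eEF1A, read 1834, 1845 and 1744 against 1856, 2119, 2170.4 and 1990.1, again without overlap (0.18 ± 0.07, adjusted p = 0.589 by limma). Without the 3 libraries low in Th these differences were 0.10 for Eef1a1 and 0.11 for Eef1g, and with the dopamine neuron covariate Eef1a1 was at 0.11. Eef1d, another subunit of that exchange factor, read 1179, 1473 and 1509 in GFP control and 1508 to 1603 in Setd7 control (0.19 ± 0.08, and 0.40 without the libraries low in Th), and the groups overlapped at the upper end of GFP control. Eef1a2 was the exception at −0.05 ± 0.12, which became 0.22 without the libraries low in Th: its GFP control values of 38168, 42576 and 55613 ran from near the lowest to the highest of all 13 libraries. In defeat with GFP 4 of the 6 genes were above 0 (49.6% of all genes), with 1 higher at unadjusted p under 0.05 (background 4.87%). Eef1g was 1907 to 1941 there and Eef1d 1512 to 1677, both above every GFP control library, by 0.10 ± 0.07 (0.03 without the libraries low in Th) and 0.22 ± 0.08. Eef1a1 overlapped GFP control. Eef1a2 had a difference of −0.07 ± 0.12 (0.21 without the libraries low in Th). Eef1e1, placed in this group by its symbol, had one of −0.09 ± 0.11 (−0.04 without those libraries). The Eef1d difference rests on GFP control replicate 1: it was 0.10 without that library and 0.44 where, without the 3 libraries low in Th, that library stood alone. With Setd7, the 6 genes differed by −0.04 to 0.01 between defeat and control.

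Eef2 read 34501, 36052 and 35394 in GFP control, 36386, 39417, 41514 and 38736 after defeat with GFP, 37697, 37076, 38699.8 and 40368 in Setd7 control, and 37251 and 37719 after defeat with Setd7. All 10 libraries outside GFP control lay above the 3 within it. Only Eef1g shared that pattern among the members (2 of 65, background 1.10%). The difference of Eef2 was 0.15 ± 0.06 for defeat with GFP (unadjusted p = 0.0280 by limma) and 0.13 ± 0.06 for Setd7 without defeat, while Setd7 after defeat gave −0.06 ± 0.07. The interaction was −0.19 ± 0.09 (unadjusted p = 0.0628, adjusted p = 0.942 by limma).

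Groups that do not overlap were counted for the 4 comparisons of single groups and for the viruses as a whole. For Setd7 without defeat 8 lay higher (background 4.17%): Eef1a1, Eef1g, Eef2, Eif1, Eif2ak3, Eif3h, Eif3l and Tpt1. Lower were 2 (background 4.09%), Eif2ak4 and Eif2d. For defeat with GFP 5 lay higher (background 4.26%), Eef1d, Eef1g, Eef2, Eif3c and Eif6, and 3 lower (background 4.74%), Eef2k, Eef2kmt and Eif2a. For Setd7 after defeat 8 lay higher (background 7.09%), Eef2k, Eef2kmt, Eif1b, Eif2ak3, Eif3j1, Eif3l, Eif4a1 and Tpt1, and 4 lower (background 6.98%), Eif3b, Eif3f, Eif4h and Eif5. For defeat with Setd7 it was 7 higher (background 4.18%), Eif2ak3, Eif2d, Eif3d, Eif3l, Eif4a1, Eif4a3 and Tpt1, and 2 lower (background 4.96%), Eef1akmt2 and Eif2b3. Between all Setd7 and all GFP libraries it was 0 higher (background 0.062%) and 0 lower (background 0.0732%).

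**Figure D4:**
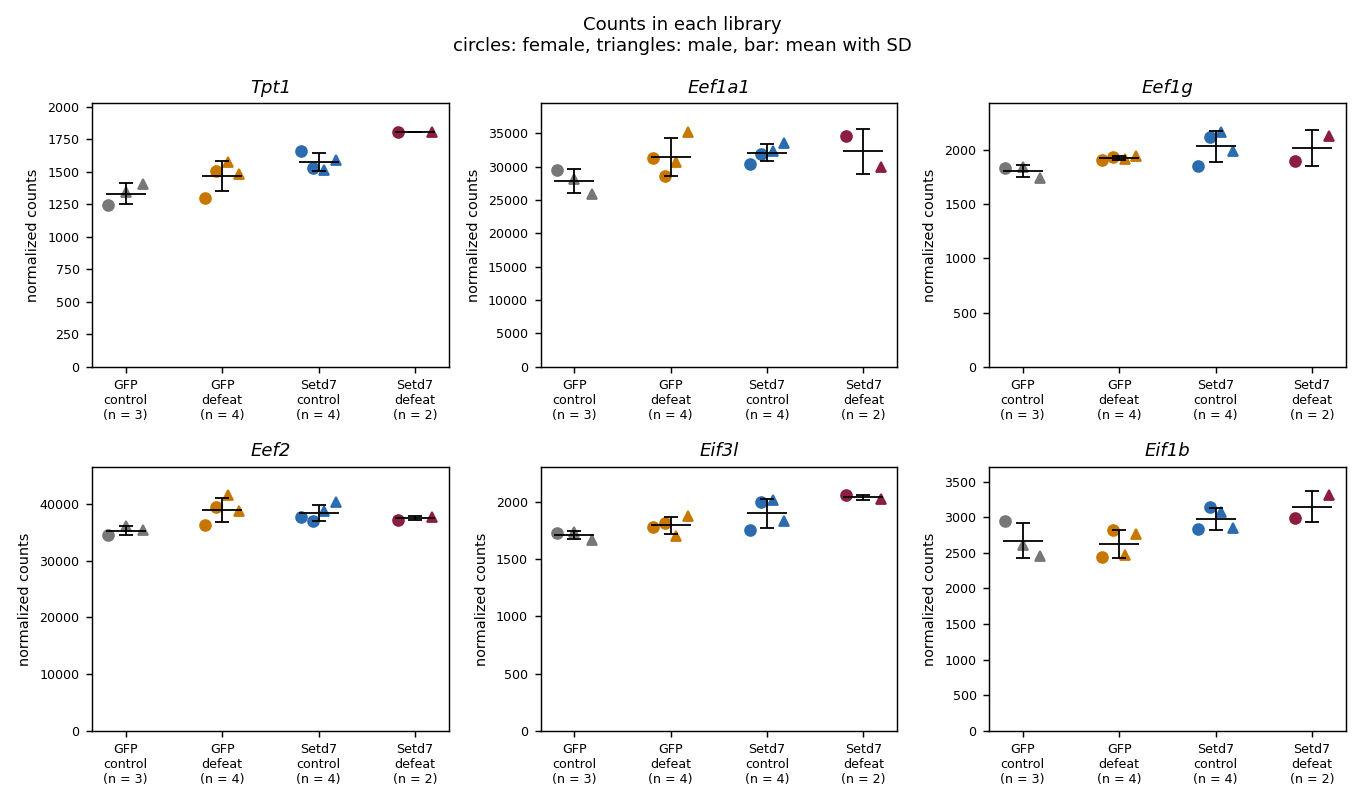
Normalized counts of Tpt1, Eef1a1, Eef1g, Eef2, Eif3l and Eif1b in each library by group, with mean and SD, on axes from 0. Tpt1 runs from 1247 to 1809 with Setd7 defeat highest, and the 3 GFP control libraries lie lowest for Eef2 (34501 to 36052) and Eef1g (1744 to 1845).

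Of the 6 enzymes that modify elongation factors, 2 were above 0 and 4 below in both Setd7 without defeat and defeat with GFP. Over all genes 51.4% and 49.6% were above 0. These comparisons share their GFP control libraries. The medians of the 6 enzymes were −0.05 and −0.11, and −0.23 and −0.32 without the libraries low in Th. Eef2k, the kinase that inhibits eEF2, read 917 to 950.0 in GFP control and 845 to 885 after defeat with GFP, without overlap (−0.08 ± 0.08, and −0.15 without the libraries low in Th), but 804 to 1012 in Setd7 control. Eef2kmt, which encodes a methyltransferase of eEF2, read 124, 108 and 102 in GFP control and 87.4, 82.1, 77.5 and 94.7 once defeated (−0.35 ± 0.19), a difference of −0.17 without GFP control replicate 1 and of −0.75 with the libraries low in Th left out. In the Setd7 groups it was 76.4, 76.4, 104 and 112 without defeat and 103 and 122 after it. Its interaction of 0.66 ± 0.28 had an adjusted p of 0.942 by limma, and was 1.05 without the 3 libraries low in Th. Eef1akmt1, a methyltransferase of eEF1A, was 135 in Setd7 defeat replicate 1, the library high in meningeal genes, and 162 to 241 in all others. Its difference after defeat, −0.38 ± 0.17, was −0.08 without that library. Eef1akmt2, another methyltransferase of eEF1A, had a difference of −0.24 ± 0.11 for defeat averaged over virus, −0.40 without the libraries low in Th and −0.14 without Setd7 defeat replicate 1.

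Of the start codon factors, Eif1b differed most by virus. It read 2947, 2616 and 2460.1 in GFP control, 2439, 2821, 2477 and 2767 after defeat with GFP, 2831, 3146, 3081 and 2852 in Setd7 control, and 2995 and 3308 after defeat with Setd7. All 6 Setd7 libraries lay above 6 of the 7 GFP libraries, and GFP control replicate 1 lay within them. The averaged difference was 0.21 ± 0.06 (unadjusted p = 0.00556, adjusted p = 0.686 by limma). It was 0.14 with the dopamine neuron covariate and 0.12 without the 3 libraries low in Th. After defeat alone it was 0.26 ± 0.09, and 0.16 without Setd7 defeat replicate 2. Between the control groups alone it was 0.15, and 0.02 without the 3 libraries low in Th, where GFP control is replicate 1. Setd7 control against GFP defeat gave 1 member at unadjusted p under 0.05 in either direction (background 2.71%), and it was Eif1b (0.18 ± 0.08). Its close relative Eif1 stood at 0.059 ± 0.045 averaged over defeat (0.098 without the libraries low in Th). In the same comparison Eif1a, which scans for the start codon with eIF1, had −0.09 ± 0.06, and −0.04 without Setd7 defeat replicate 1. Eif5b, which joins the subunits, had −0.14 ± 0.08 in Setd7 without defeat and −0.06 with the dopamine neuron covariate. Next to Eif1b in Setd7 control against GFP defeat came Eef1e1 (0.17 ± 0.10) and Eif4e3 (0.14 ± 0.08), a relative of the cap-binding protein, which was at 0.09 without GFP defeat replicate 2. Averaged over defeat, 6 members were higher at unadjusted p under 0.05 (background 3.70%): Tpt1, Eif1b, Eif3l, Eif3h, Eif2ak3 and Eef1g.

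The alpha subunit of eIF2, the target of the stress kinases, was encoded at near-equal levels: Eif2s1 averaged 682 ± 21.0 (n = 3) in GFP control, 684 ± 23.1 (n = 4) after defeat with GFP, 679 ± 73.6 (n = 4) in Setd7 control and 727 ± 42.7 (n = 2) after defeat with Setd7. Eif2b3, a subunit of the exchange factor eIF2B that recharges eIF2, had a difference of −0.21 ± 0.13 for defeat with Setd7, which was −0.08 without Setd7 defeat replicate 1 and −0.34 without replicate 2. Among the kinases, Eif2ak3 (PERK, which senses stress of the endoplasmic reticulum) read 1292, 1361 and 1345 in GFP control, 1284, 1362, 1449 and 1463 after defeat with GFP, 1522, 1377, 1440.1 and 1407 in Setd7 control, and 1629.8 and 1548 after defeat with Setd7. The Setd7 defeat pair lay above the other 11 libraries. The difference after defeat was 0.19 ± 0.08 (unadjusted p = 0.0264, adjusted p = 0.990 by limma), and 0.15 ± 0.05 averaged over defeat. Without Setd7 defeat replicate 1 the difference after defeat was 0.13. In Setd7 after defeat with all libraries kept, all 9 meningeal fibroblast markers were higher (50.8% of all genes), with a median of 1.04. Of these, 7 had an unadjusted p under 0.05 (background 2.59% of genes higher). Their part in the result was not tested. Eif2ak4 (GCN2, which senses uncharged tRNA) read 1068 to 1107 in GFP control and 884 to 1049 in Setd7 control, without overlap (−0.15 ± 0.09). The difference was −0.05 with the dopamine neuron covariate and −0.16 without the 3 libraries low in Th. Eif2ak1 (HRI, the heme-regulated kinase) was 2185 to 2843 with all groups overlapping.

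Eif2ak2 (PKR, the kinase that binds double-stranded RNA and is itself induced by interferon) stood apart in 1 library. It read 844 in Setd7 control replicate 4 and 332 to 499 in the other 12. That library also held 2158 counts of Ifit3 (368 to 933 elsewhere), an interferon-induced gene. A list of 11 interferon-induced genes, chosen after values were seen, summed to 9943 there and to at most 4194.5 in any library of the other groups. The part of the interferon genes in the Eif2ak2 value was not tested. The difference between Setd7 control and GFP control was 0.28 ± 0.22 (unadjusted p = 0.220 by limma), and 0.17 without the libraries low in Th. Targets of the integrated stress response, the programme these kinases feed, were counted beside the share over all genes. In Setd7 without defeat 1 of 20 was higher at unadjusted p under 0.05 (background 4.31%), Cebpb (0.48 ± 0.21). In defeat with GFP it was 2 of 20 (background 4.87%), Ddit4 (0.29 ± 0.12) and Phgdh (0.36 ± 0.14). The median of the 20 was 0.060 and 0.076 in these comparisons, 0.0087 in Setd7 after defeat and 0.015 in defeat with Setd7. Without the libraries low in Th it was 0.13, 0.21 and −0.04 in the first 3. Cebpb encodes a transcription factor, Ddit4 an mTOR inhibitor and Phgdh the first enzyme of serine synthesis.

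**Figure D5:**
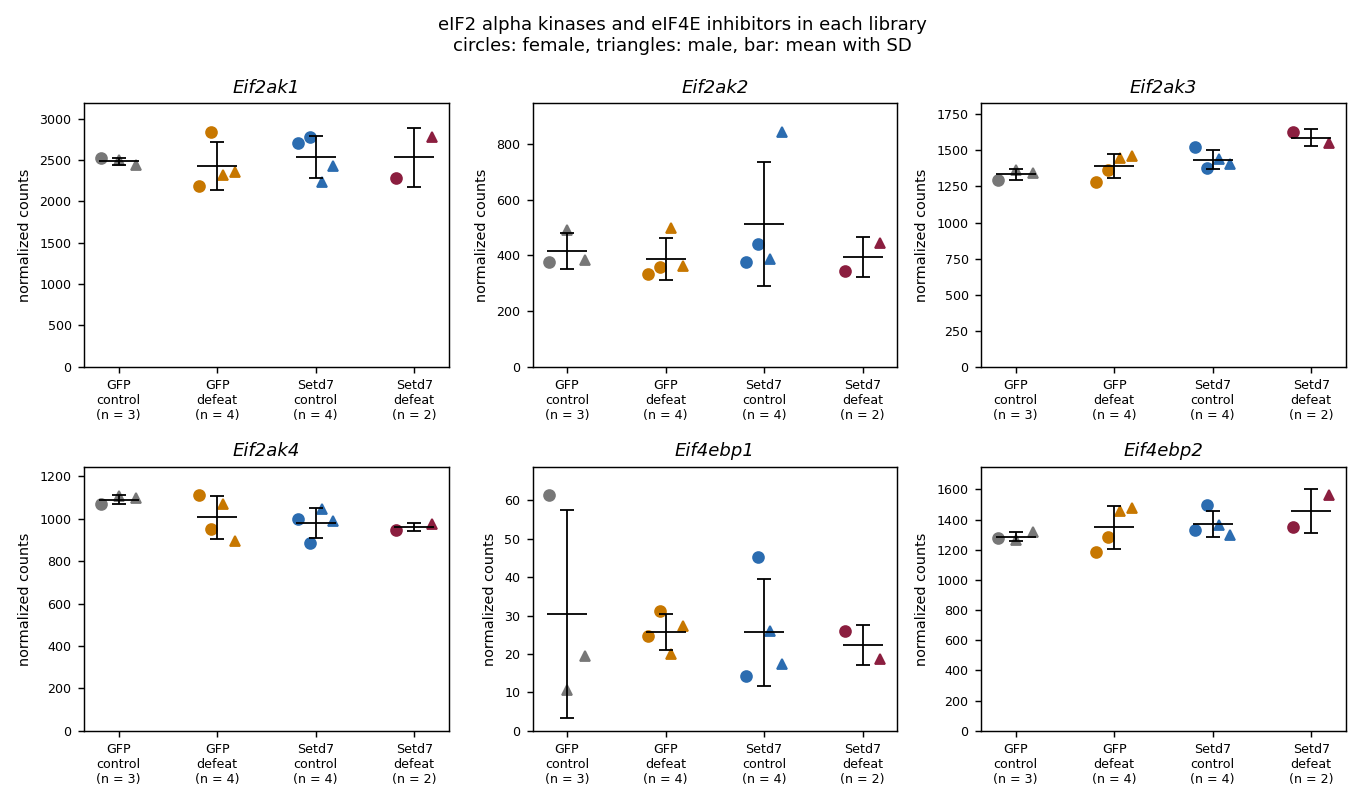
Normalized counts of the 4 eIF2 alpha kinases and of Eif4ebp1 and Eif4ebp2 in each library by group, with mean and SD, on axes from 0. Eif2ak2 reaches 844 in 1 Setd7 control library, Eif2ak3 is highest in both Setd7 defeat libraries (1629.8 and 1548), and Eif4ebp1 is scattered from 10.7 to 61.3.

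Eif2a and Eif2d, which encode proteins able to bring initiator tRNA without eIF2, were lower than GFP control in both first comparisons. Eif2d read 617, 603 and 641 in GFP control, 492, 513, 572 and 495 in Setd7 control and 588, 426, 632 and 479.7 after defeat with GFP, with no overlap between the first 2 (−0.25 ± 0.13, unadjusted p = 0.0695 by limma), a difference of −0.12 with the dopamine neuron covariate and −0.33 without the libraries low in Th. For defeat with GFP the difference was −0.23 ± 0.13, and −0.13 and −0.39 in the same 2 settings and −0.14 without GFP defeat replicate 2. The Setd7 defeat libraries read 588 and 602, and the interaction was 0.43 ± 0.19 (adjusted p = 0.942 by limma). Eif2a read 1108, 1030.2 and 1032 in GFP control and 958 to 1018 after defeat with GFP, without overlap (−0.11 ± 0.08), and the difference was −0.07 without GFP control replicate 1 and −0.18 with the libraries low in Th left out.

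Of 13 eIF3 subunits, 10 were above GFP control in Setd7 control and 9 after defeat with GFP, with medians of 0.098 and 0.093. Over all genes 51.4% and 49.6% were above 0 in these comparisons, which share their GFP control libraries. Of the 13, 2 and 1 were higher at unadjusted p under 0.05 (background 4.31% and 4.87%). Eif3h read 829, 857 and 889.7 in GFP control and 929.7 to 1018 in Setd7 control, without overlap (0.19 ± 0.08). Eif3l read 1725, 1739.8 and 1668 in GFP control, 1706 to 1879.6 after defeat with GFP, 1756, 2003, 2013 and 1829 in Setd7 control, and 2056 and 2026 after defeat with Setd7, and its averaged difference was 0.17 ± 0.05 (unadjusted p = 0.00643, adjusted p = 0.686 by limma). The Setd7 defeat pair was again the highest. Eif3f, with the long pyrimidine run printed above, went another way. It read 2111, 2736 and 2972 in GFP control, 2887, 2868, 2931 and 3146 after defeat with GFP, 2613, 2502, 2795 and 3224 in Setd7 control, and 2699 and 2412 after defeat with Setd7. Defeat with GFP gave 0.22 ± 0.10 and the Setd7 effect after defeat −0.21 ± 0.11, and the interaction was −0.34 ± 0.15 (unadjusted p = 0.0362, adjusted p = 0.942 by limma). Leaving out Setd7 defeat replicate 2 took the interaction to −0.16 and the difference after defeat to −0.02, and leaving out replicate 1 took them to −0.55 and −0.41. Without the libraries low in Th defeat with GFP gave 0.43 and the interaction −0.55, and without GFP control replicate 1 the interaction was −0.22. Eif3a, the largest subunit, showed −0.00 ± 0.08 for defeat with GFP and 0.12 ± 0.08 for Setd7 without defeat (0.04 and 0.18 without the libraries low in Th).

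The 12 genes listed here as eIF4 cap-binding, helicase and scaffold factors had a median SD of 0.095 (log2). The list is wider than the cap complex, since it holds Eif4g2, the scaffold for initiation without eIF4E. In Setd7 without defeat 8 of 12 were above 0 (51.4% of all genes), with a median of 0.015. For defeat with GFP it was 7 of 12 (49.6% of all genes) and 0.034 (−0.0034 without the libraries low in Th). Eif4a1, the general form of the eIF4A helicase, read 1631, 1683 and 1551 in GFP control, 1600.4, 1748, 1730.2 and 1745 after defeat with GFP, 1459, 1662, 1701 and 1679 in Setd7 control, and 1868 and 1905 after defeat with Setd7. The last 2 lay above all others, with a difference of 0.22 ± 0.08 from Setd7 control (unadjusted p = 0.0150, adjusted p = 0.9999 by limma). Eif4a2 showed −0.04 ± 0.07 in the same comparison. Averaged over virus, 4 members were higher after defeat at unadjusted p under 0.05 (background 2.34%), Tpt1, Eif4a1, Eif6 and Eif3h, and 1 lower (background 2.83%), Eef1akmt2. Eif4h, which encodes a cofactor of the helicase, read 7319.6, 8126 and 8989.6 in GFP control and 8694 to 9172 once defeated (0.17 ± 0.07), with 0.10 without GFP control replicate 1 and 0.29 with the libraries low in Th left out. Eif4e, the cap-binding protein, differed by −0.08 ± 0.08 in Setd7 without defeat and −0.05 ± 0.08 in defeat with GFP (−0.18 and −0.14 without the libraries low in Th). Eif4g1 differed by 0.07 ± 0.06 in each (0.09 and 0.11).

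The inhibitors of eIF4E were led by Eif4ebp2, the main form in brain, at 1182 to 1559 counts, with differences of 0.11 ± 0.09 between the control groups and 0.08 ± 0.09 for defeat with GFP (0.06 and 0.09 without the libraries low in Th). Eif4ebp1 read 61.3, 10.7 and 19.4 in GFP control, 24.7, 31.2, 19.97 and 27.2 after defeat with GFP, 14.2, 45.3, 25.9 and 17.3 in Setd7 control, and 26.1 and 18.8 after defeat with Setd7. GFP control alone held both its highest and its lowest library, and the difference for Setd7 without defeat was −0.13 ± 0.48 (−1.19 without the libraries low in Th, set by the highest library alone), and at these counts a change under that error was not detectable. Eif6, which encodes a protein that keeps the large ribosomal subunit from joining too early, read 668, 645 and 716 in GFP control and 797, 781, 892 and 830.5 after defeat with GFP, without overlap. That was 0.29 ± 0.11 (unadjusted p = 0.0164, adjusted p = 0.451 by limma), the smallest p among the members in that comparison, and 0.28 to 0.31 over the alternatives other than leaving out single libraries (0.25 to 0.33 over those). In the Setd7 groups Eif6 read 680.4 to 789.6 without defeat and 916 and 688 after it, and without the first of that pair the difference averaged over virus was 0.07 in place of 0.19. Eif5a averaged 5414 to 5536 in the 4 groups, with a difference of −0.00 ± 0.07 in Setd7 without defeat (0.05 without the libraries low in Th).

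The 10 TOP mRNAs among the members are given beside other translation genes, as counts and medians. In Setd7 without defeat 9 of the 10 were above 0 with a median of 0.17, 5 of them at unadjusted p under 0.05 (4.31% of all genes were higher at that threshold), and 72 of 77 cytosolic ribosomal protein genes were above 0 with a median of 0.21, where all genes had 0.0057 and 51.4% above 0. In defeat with GFP it was 9 of 10 with a median of 0.15 and 70 of 77 with 0.18, where all genes had −0.0020 and 49.6% above 0. Without the 3 libraries low in Th the TOP medians were 0.16 and 0.18 and the ribosomal medians 0.23 and 0.23. The dopamine marker medians were 0.98 and 0.81 with all libraries and 0.12 and 0.18 in that setting. There GFP control is replicate 1 alone, and the part of dopamine neuron content in these medians was not tested. In Setd7 after defeat the TOP median was 0.031 (6 of 10 above 0) and in defeat with Setd7 −0.0020 (5 of 10). The ribosomal medians were 0.025 (45 of 77) and 0.012 (43 of 77). Over all genes 50.8% and 48.0% were above 0 in these comparisons. Without the libraries low in Th the ribosomal median in Setd7 after defeat was 0.0121. These lists were chosen with earlier results known, and no test compares the lists with other genes. Of 42 other cytosolic factors and regulators, 28 were above 0 in Setd7 without defeat and 23 in defeat with GFP, with medians of 0.041 and 0.011 (0.075 and 0.069 without the libraries low in Th). Rps6kb2, a kinase of ribosomal protein S6, was the lowest of them in defeat with GFP at −0.71 ± 0.16 (adjusted p = 0.354 by limma), and Dohh, which completes the hypusine of eIF5A, the highest at 0.47 ± 0.15. Of 11 mitochondrial translation factors 6 and 5 were above 0, with medians of 0.0062 and −0.046 (0.033 and −0.020).

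Between the sexes 3 members had an unadjusted p under 0.05 in either direction (background 3.87%). Eif4e had a female minus male difference of 0.13 ± 0.06, Eif2ak2 one of −0.35 ± 0.16 and Eif3f one of −0.16 ± 0.07, each with adjusted p = 0.999 by limma. Without the male library Setd7 control replicate 4 the Eif2ak2 value was −0.20, and the Eif3f value was −0.09 without GFP control replicate 1 as well as without the libraries low in Th.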

How the data were processed

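RNA from VTA punches of 13 libraries was purified with RNeasy Micro and made into TruSeq RiboZero libraries, per the labels. Alignment with Bowtie2 to GRCm39, counting with featureCounts and scaling with DESeq2 are given in the submitters' processing notes, without versions. The authors deposited a single table of signal, counts divided by size factors, for 26264 genes. Strand settings and read handling of copies are not given in the sources used here. Dividing each column by its smallest step gave whole reads for 100% of 341432 values (tolerance 0.01), which the count tests used. The column of Setd7 defeat replicate 1 carries a longer number than its title and was matched by virus, defeat and sex; whether it is a single animal is not settled.

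Genes with 10 or more normalized counts in 2 samples were tested (17755). The two-sided limma tests (3.58.1, trend, in R 4.3.3) used log2(normalized count + 1) with 4 group means and sex, Benjamini-Hochberg adjusted over all 17755 genes. Fold changes are on that scale. Count tests on recovered reads (edgeR 4.0.16 and DESeq2 1.42.0) were alternatives. edgeR called 0 genes and DESeq2 28 in Setd7 without defeat, 0 and 85 in defeat with GFP, and 1 and 7 in the averaged Setd7 effect. The method was tested on simulated data with changes larger than most member differences here, which does not tell how well smaller ones are detected.

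Members and lists were chosen with earlier results of these data known. Genes were named by rule: 19 set factors, the 3 smallest unadjusted p per direction and comparison, and the extremes of level and spread. Other members at unadjusted p under 0.05 or without overlap are named because their count is small, after their values were seen. Exon lengths and copies came from GENCODE M21 (GRCm38) by name, copies with blastn 2.17.0+, and promoters from RefSeq GRCm38.p6. No protein sequences were used here.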

Additional observations from a re-analysis of the deposited data

Results flagged for a closer look

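Among 42 named genes in the 2 groups of 4 libraries (84 sets), 5 values lay farther from the other 3 than Dixon's 95% critical value allows, and chance flags about 1 in 20 sets. In Setd7 control, Eef1akmt4 read 14.1 in replicate 2 against 31.3 to 32.8 in the others, a methyltransferase gene with few counts. Eif4h, a helicase cofactor gene, read 7672 in the same library against 8572 to 8625, and Eif4a1 read 1459 in replicate 1 against 1662 to 1701. In GFP defeat, Eif3a read 3127 in replicate 3 against 3732 to 3838, and Eif4a1 read 1600.4 in replicate 1, a library low in Th, against 1730.2 to 1748. Each of the 5 is the lowest value of its set.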

How the results depend on the processing

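Over the alternatives, members called stayed at 0 in 219 of 220 counts, the exception being 1 (Tpt1) by DESeq2 for the averaged Setd7 effect. The median of the members moved beyond its spread between libraries (0.0179) in 11 of 220 values, and the cause was not tested. Without the 3 libraries low in Th it was 0.0651 for Setd7 without defeat, −0.0523 for the interaction and 0.0421 for defeat averaged over virus. With the dopamine neuron covariate it was 0.0232 for defeat with GFP and 0.0044 for the interaction. Leaving out 1 library at a time gave 0.0223 (without Setd7 control replicate 4) to 0.0589 for Setd7 without defeat, 0.0114 (without GFP defeat replicate 2) to 0.0529 for defeat with GFP, 0.0033 to 0.0329 (without Setd7 defeat replicate 1) for defeat with Setd7, and −0.0414 (without GFP defeat replicate 1) to 0.0168 (without Setd7 defeat replicate 1) for the interaction, which was 0.0052 without GFP control replicate 2. Of 1320 values of single members 1 reversed: Eef1akmt1 in defeat with Setd7 ranged from −0.5606 to 0.0287, the latter without Setd7 defeat replicate 1. Counts at unadjusted p under 0.05 were over 1.5 times smaller in 46 and larger in 5 of 220 cases. For Setd7 without defeat the count of 6 was 1 with the dopamine neuron covariate, 2 without Setd7 control replicate 2 and 3 without GFP control replicate 2. For defeat with GFP the count of 5 was 1 without GFP control replicate 2, and 3 without either GFP control replicate 1 or replicate 2 of GFP defeat, with no sex term, or with only the 2 groups. For Setd7 after defeat the count of 6 was 2 without the 3 libraries low in Th or GFP defeat replicate 1 alone, and 3 without Setd7 defeat replicate 2. For the averaged Setd7 effect the 6 became 3 with the covariate or without the low-Th libraries. With single libraries left out the counts ran from 1 to 4 for defeat with Setd7, 0 to 6 for the interaction, 2 to 8 for defeat averaged, 0 to 2 for Setd7 control against GFP defeat and 0 to 3 for sex. A group left with 1 library was taken to vary like the others. No paired analysis was possible because the labels give each library a number of its own.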
